A study of Mus musculus with 18 samples.

Results

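The genes described here are 48 genes of the cell cycle and of DNA replication, measured in forebrain cultures treated with an inhibitor of histone deacetylases or with a bone morphogenetic protein. The members were taken by name as 17 replication genes, 9 genes of the G1 phase and 22 mitotic genes, and on the Mouse Genome 430 2.0 array 115 of its 45101 probe sets are paired with 1 of these genes alone. A gene was represented by its brightest probe set, the one with the highest mean signal over all arrays. Of the 48 members, 47 have such a probe set (Ccnb1, cyclin B1, is not analysed here), and 42 reached a mean signal of 100 in at least 1 group and were tested among 10576 genes. These are 16 replication, 8 G1 and 18 mitotic genes. Tyms (thymidylate synthase), E2f1, Foxm1, Cenpe and Mybl2 stayed under 100 in every group and were not tested.

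The arrays hold RNA of neurosphere cultures from the lateral and medial ganglionic eminences of E15.5 C57BL/6 mouse embryos. Neurospheres grown with EGF and bFGF for 7 days were dissociated and plated without EGF in 1% fetal calf serum, and the labels place the withdrawal of bFGF at 2.5 days after plating. The 6 groups are 50 nM trichostatin A (TSA) for 24 h (n = 4 arrays), 10 ng/ml BMP2 for 24 h (n = 2), untreated control at 24 h (n = 6), TSA for 6 h (n = 2), BMP2 for 6 h (n = 2) and untreated control at 6 h (n = 2), so that every group shares the plating, the serum and the growth factors. The cultures are mixtures of cell types, and the labels do not say whether arrays of a group come from separate cultures, so that the p-values measure the spread between arrays, which may be technical.

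Cyclins are the regulatory subunits that switch cyclin-dependent kinases on in turn. D-type cyclins with Cdk4 or Cdk6, and then E-type cyclins with Cdk2, carry a cell through G1 by releasing E2F transcription factors from the retinoblastoma protein. The Mcm helicase is loaded on origins by Cdc6 and Cdt1 and unwinds DNA for the polymerases, which Pcna, the sliding clamp, holds on their template, whereas Cdk1, Plk1, the Aurora kinases and the kinesins act in mitosis and many of their genes are read out in G2. In the ganglionic eminences this programme runs in progenitors and ceases as cells differentiate into neurons and macroglia, and TSA, which blocks class I and II histone deacetylases, is known for halting the cycle in many cell types.

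Promoter sequences are shown first for 7 members on which the results below turn, since E2F sites are known from promoters of G1/S genes and CHR elements with CCAAT boxes from promoters of G2/M genes. The RefSeq table (GRCm38.p6) matched 38 of the 48 members with 41 promoters, each running from 250 bases before to 50 bases after a gene start. Both strands were searched for E2F letters (TTTCCCGC, TTTCGCGC, TTTGCCGC or TTTGGCGC), for the CHR letters TTTGAA and for CCAAT. E2F letters stood in 7 of 17 promoters of replication genes (41.2%), 1 of 7 of G1 genes and 1 of 17 of mitotic genes, against 2.26% of the 32851 promoters of the whole table. CHR letters stood in 10 of 17 mitotic promoters (58.8%), against 17.9% of all promoters, and each of these 10 also held CCAAT, a pair that 6.95% of all promoters hold. The lines below give bases before the gene start, 5′ to 3′ on the strand of the gene, with every match in capitals. They are Mcm5 at chr8:75109349-75109508 on the plus strand, Mcm7 at chr5:138171884-138172053 on the minus strand, Pcna at chr2:132253181-132253300 on the minus strand, Cdc20 at chr4:118437344-118437443 on the minus strand, Top2a at chr11:99024190-99024349 on the minus strand, Kif11 at chr19:37376282-37376381 on the plus strand and Cdk6 at chr5:3343793-3343892 on the plus strand.
Mcm5: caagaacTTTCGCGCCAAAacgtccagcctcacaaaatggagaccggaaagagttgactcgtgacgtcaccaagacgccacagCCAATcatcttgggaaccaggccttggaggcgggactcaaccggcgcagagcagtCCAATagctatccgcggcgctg
Mcm7: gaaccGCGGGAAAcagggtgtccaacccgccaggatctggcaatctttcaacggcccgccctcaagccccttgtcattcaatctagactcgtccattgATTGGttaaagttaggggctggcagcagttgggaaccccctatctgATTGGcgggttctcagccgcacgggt
Pcna: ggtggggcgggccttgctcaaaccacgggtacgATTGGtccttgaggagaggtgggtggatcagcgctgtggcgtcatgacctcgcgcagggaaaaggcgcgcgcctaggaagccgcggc
Cdc20: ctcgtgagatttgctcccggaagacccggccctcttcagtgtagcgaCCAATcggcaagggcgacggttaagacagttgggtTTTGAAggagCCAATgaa
Top2a: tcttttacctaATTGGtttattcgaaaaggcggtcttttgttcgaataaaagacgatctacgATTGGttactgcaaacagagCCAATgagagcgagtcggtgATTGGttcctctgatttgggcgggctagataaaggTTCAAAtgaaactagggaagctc
Kif11: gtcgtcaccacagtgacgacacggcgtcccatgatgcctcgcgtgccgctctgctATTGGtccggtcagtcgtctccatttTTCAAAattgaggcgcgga
Cdk6: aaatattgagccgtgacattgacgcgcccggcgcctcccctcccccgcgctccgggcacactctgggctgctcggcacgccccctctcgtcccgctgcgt
In the Mcm5 promoter the capitals hold 2 E2F matches, 1 on each strand, that overlap. The bases shown for Mcm7 have 1 E2F match and 2 CCAAT matches, all on the other strand. Mcm7 has another promoter, at chr5:138171217-138171516, without E2F letters, and the promoter with E2F letters was the one shown. Cdc20, Top2a and Kif11 each have 1 CHR match within the bases shown, with 2, 4 and 1 CCAAT matches. Pcna shows only a CCAAT match, and Cdk6 shows none of the letters. A match describes these letters and is no evidence of a bound site. Every member shown passed the test below with TSA for 24 h. E2F letters also stood in promoters, not shown, of Cdc6, Cdt1, Mcm3, Mcm6 and Pola1. Their log2 changes with TSA for 24 h were -0.81, -0.55, 0.16, 0.34 and 0.01 in this order. The promoter of Cdk1, also not shown, holds E2F, CHR and CCAAT letters, and Cdk1 did not pass. Whether the letters go with a change was not tested.

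Array values differed within groups in ways that touch nearly every result. The mean of log2(signal + 32) over the 18 mitotic genes was 7.03, 6.31, 6.11 and 7.98 on the TSA arrays of 24 h, 7.46 and 8.45 on the BMP2 arrays of 24 h, and lay between 7.04 and 8.02 on the control arrays of 24 h. At 6 h the arrays numbered 1 exceeded those numbered 2 in all 18 mitotic genes with TSA, in all 18 with BMP2 and in 17 of 18 in controls, with medians of the difference of 0.62, 0.76 and 0.71 on the log2 scale, while over all tested genes the median was 0.01 in each group. In addition, BMP2 arrays 1 and 2 and control arrays 5 and 6 of 24 h gave Xist signals of 703 to 2086, against 18.4 to 75.5 on the other 14 arrays, so that both BMP2 arrays and no TSA array of 24 h belong to this set. Summed signals of cell type markers differed between groups as well. The sum of 8 oligodendrocyte lineage genes was 14400 to 21700 with TSA and 11500 to 12300 with BMP2, against 31500 to 38900 in controls at 24 h, that of 7 neural stem and progenitor genes was 26900 to 29700 with TSA and 27200 to 27300 with BMP2, against 25500 to 28100 in controls, that of 8 neuronal genes was 3430 to 4120 with TSA and 5830 to 6890 with BMP2, against 4760 to 6790 in controls, and that of 7 astrocyte genes was 20800 to 27500 with TSA and 15100 to 18500 with BMP2, against 20000 to 27500 in controls. At 6 h the oligodendrocyte sum was 22900 to 23100 with TSA and 26200 to 28500 with BMP2, against 36400 to 37700 in controls, the neuronal sum 3780 to 4810 with TSA and 5240 to 6260 with BMP2, against 6590 to 8140, and the astrocyte sum 14300 to 16200 with TSA and 17300 to 20600 with BMP2, against 19900 to 22400. The neural stem and progenitor sum at 6 h was 22400 to 24400 with TSA and 23800 on either BMP2 array, against 25500 to 25600 in controls. All of these 6 h sums thus lay below both controls with TSA, and all 7 microglial genes stayed under 100. A sum is led by its brightest genes. In log2 change, neuronal genes ran from -2.83 to 1.93 and astrocyte genes from -2.46 to 1.78 with TSA at 24 h. Progenitor genes ran from -1.02 to 1.15 and oligodendrocyte genes from -4.46 to 0.05. With BMP2 at 24 h these ranges were -0.67 to 1.48, -1.67 to 0.4, -0.86 to 0.84 and -4.72 to -0.23. With TSA at 6 h they were -1.94 to 1.09, -1.93 to -0.05, -1.13 to 1.29 and -2.74 to -0.09. The 3′ to 5′ ratio of the actin control probe sets was 1.45 to 2.05 with TSA, 1.29 to 1.38 with BMP2 and 1.24 to 1.78 in controls at 24 h. The part of these values in the results was not tested, and in bulk RNA fewer dividing cells and less RNA per dividing cell cannot be told apart.

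**Figure D1:**
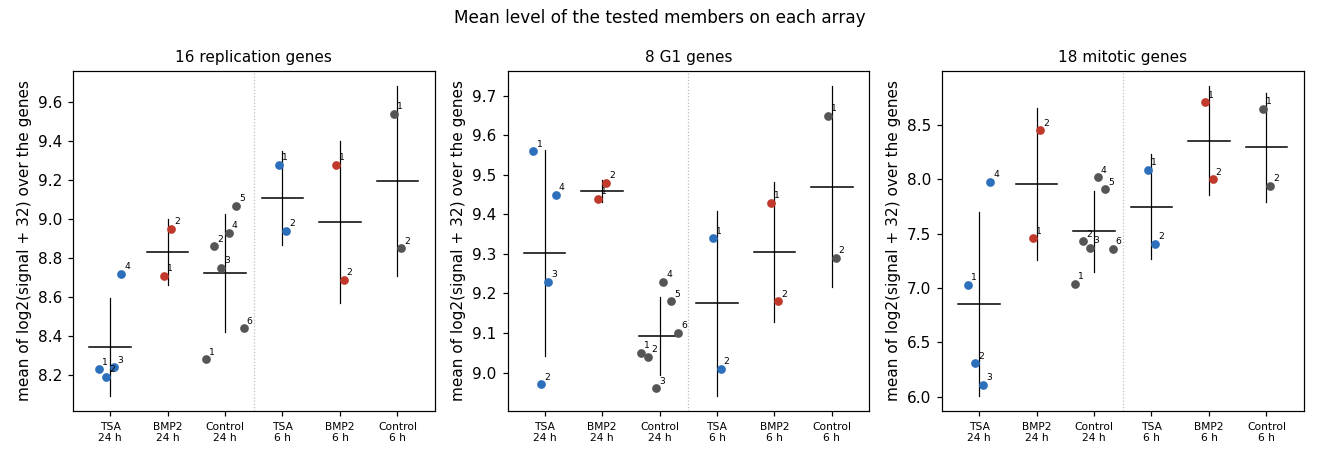
Mean of log2(signal + 32) over the tested replication, G1 and mitotic genes on each of the 18 arrays (points, numbered by replicate), with the group mean (horizontal line) and ± 1 SD (vertical line). The mitotic means of the TSA arrays of 24 h lie between 6.11 and 7.98, with array 4 among the controls (7.04 to 8.02), array 1 (7.03) just under the lowest of them and arrays 2 and 3 well below.

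TSA for 24 h had more members called than any other treatment against its controls, in the comparison with the most arrays (4 against 6). Mcm5 and Mcm7 of the replicative helicase, Pcna, the mitotic genes Cdc20, Top2a, Kif11 and Kif20a, and Cdk4 fell, whereas Cdc25b, Cdk6, Ccnd2 and Ccnd3 rose. In all, 4 members were higher and 10 lower at an adjusted p under 0.05 (limma, Benjamini-Hochberg over all 19498 tested probe sets), 14 of 42, beside 38.7% of all tested genes (18.6% higher, 20.1% lower). The share of members called was not above that of genes at large. The median log2 change was -0.35 over replication genes, 0.39 over G1 genes and -0.72 over mitotic genes, beside -0.02 over all tested genes. TSA and control arrays of equal number deviated together at 24 h, and with these pairs as blocks 24 members were called, 4 higher and 20 lower (background 49.7%, with 24.8% higher and 25% lower).

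**Figure D2:**
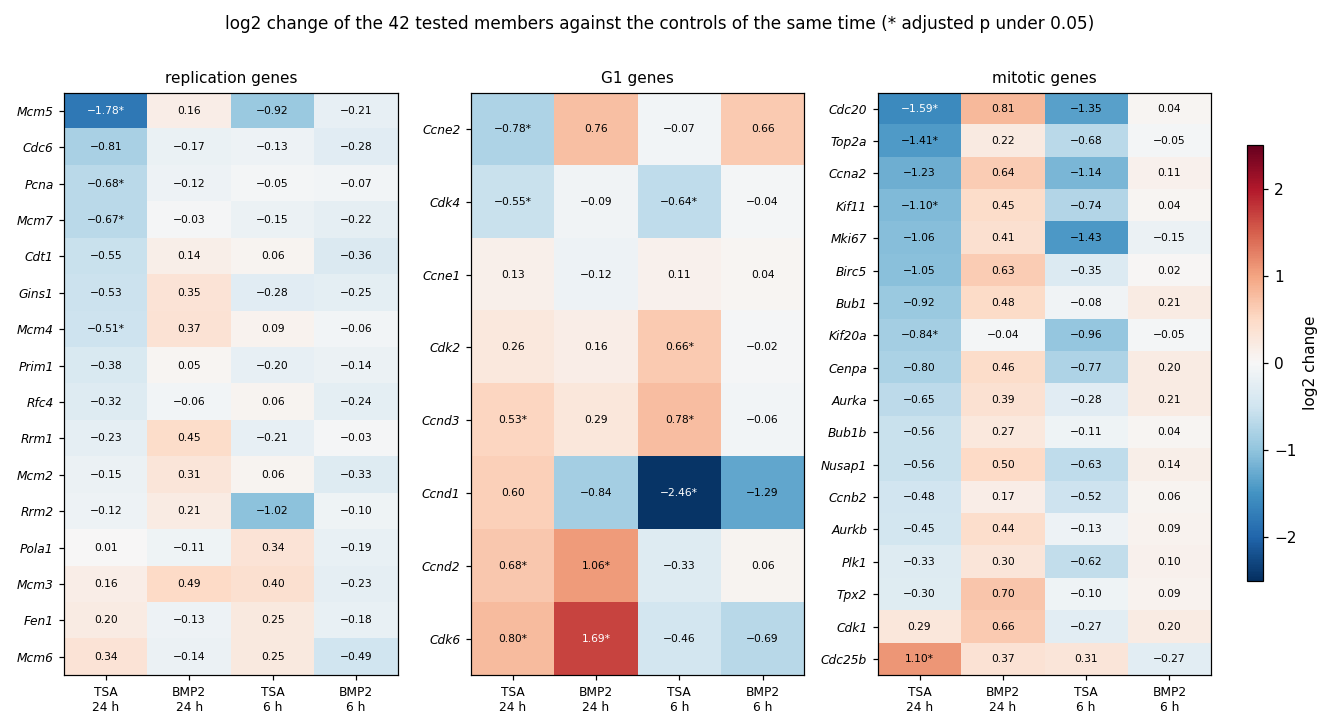
log2 change of each of the 42 tested members (rows, sorted by the change with TSA for 24 h) against the controls of its time, for TSA and BMP2 at 24 h and at 6 h (columns). Asterisks mark an adjusted p under 0.05: 14 with TSA at 24 h, 2 with BMP2 at 24 h, 4 with TSA at 6 h and none with BMP2 at 6 h.

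Among replication genes, 4 of 16 were lower with TSA at 24 h and none was higher, beside 20.1% of all tested genes lower and 18.6% higher. Mcm5, a subunit of the Mcm2 to Mcm7 helicase, had signals of 97.1, 61.3, 24.4 and 274 with TSA, against 171 to 646 in controls (median 433.5). Only TSA array 4 reached into the range of the controls, and the log2 change was -1.78 (SE 0.43, adjusted p = 0.00445), with -1.14 on its other probe set. Pcna had 1376, 1796, 1737 and 1663 with TSA and 2020 to 3053 in controls (median 2844). Every TSA array lay below every control, and Pcna changed by -0.68 (SE 0.12, adjusted p = 0.000489). Groups that do not overlap in this direction were found for 1 of 16 replication genes, beside 11.7% of all tested genes. Mcm7 had 741, 592, 1029 and 1057 with TSA and 979 to 1753 in controls (median 1390), a change of -0.67 (SE 0.19, adjusted p = 0.0111), and Mcm4 had 300.1, 277, 246 and 339.9 with TSA and 323 to 579 in controls (median 422), a change of -0.51 (SE 0.18, adjusted p = 0.0344). The call of Mcm4 was lost in 9 of 33 alternatives, among them those without TSA array 1, 2 or 3 or control array 2, 4 or 5, while Mcm5, Mcm7 and Pcna kept theirs in all 33.

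The other subunits of the same helicase did not pass the test. Mcm6 had 636, 584, 925 and 977 with TSA and 399.5 to 846 in controls (median 634), with a change of 0.34 (95% interval -0.14 to 0.82 before adjustment) and Mcm3 one of 0.16. Mcm2 had 289.7, 153, 219 and 324 with TSA, inside the 182 to 490 of the controls, and a change of -0.15. Mcm5 had the lowest and Mcm6 the highest log2 change of the 16 replication genes, and the difference between these genes was not tested. Rrm2, the regulatory subunit of ribonucleotide reductase, had 589, 659, 679 and 807 with TSA, inside the 380 to 1171 of the controls. Cdc6, Cdt1, Gins1 and Prim1, which license, activate or prime origins, gave -0.81, -0.55, -0.53 and -0.38 with adjusted p of 0.0514, 0.129, 0.0672 and 0.0958. With the pairs as blocks these 4 passed at adjusted p of 0.00771, 0.029, 0.0208 and 0.0131.

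**Figure D3:**
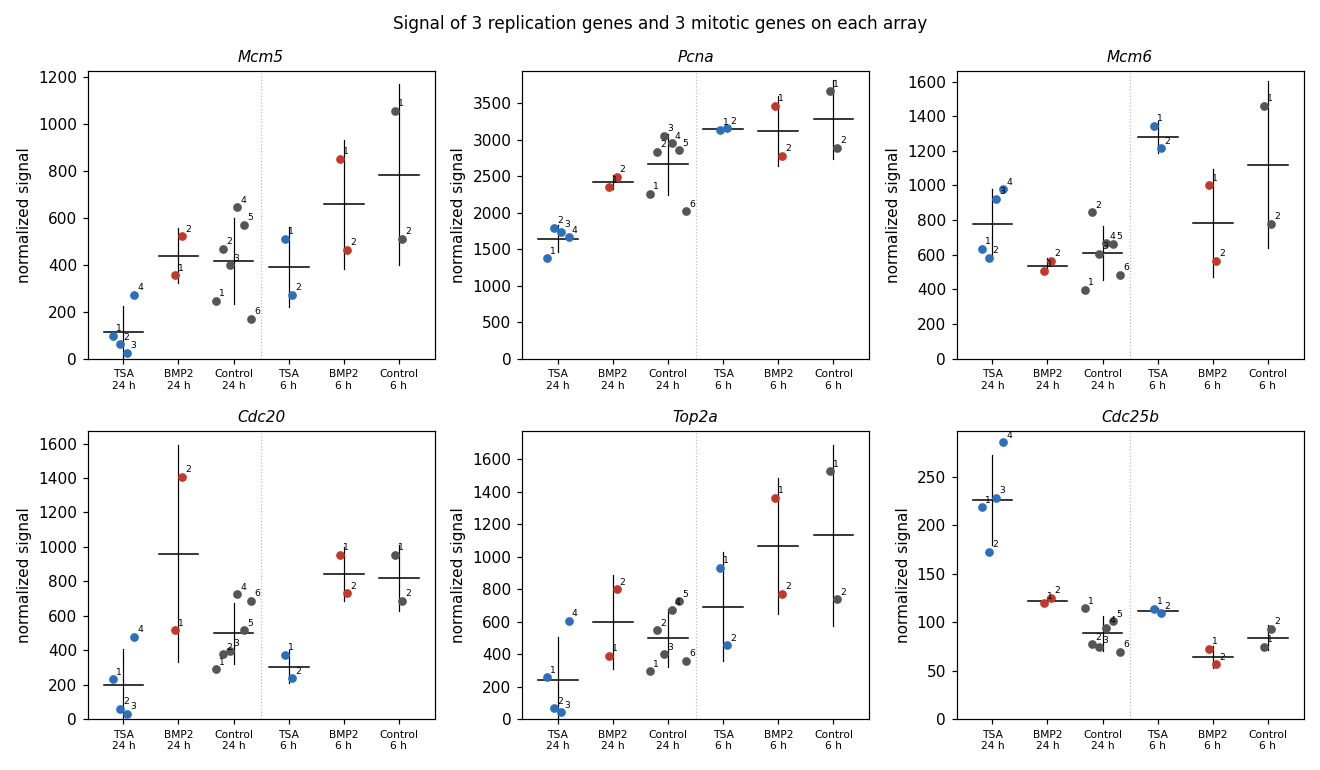
Normalized signal (linear axes) of Mcm5, Pcna and Mcm6 of the replication genes and of Cdc20, Top2a and Cdc25b of the mitotic genes on each array (points, numbered by replicate), with the group mean and ± 1 SD. With TSA for 24 h all 4 arrays lie below all 6 controls for Pcna (1376 to 1796 against 2020 to 3053) and above them for Cdc25b (172 to 285.5 against 69.4 to 114), while for Cdc20 and Top2a array 4 lies among the controls.

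Of 18 mitotic genes, 4 were lower and 1 higher with TSA at 24 h, beside 20.1% lower and 18.6% higher among all tested genes, and 16 of 18 had a negative change. Cdc20, the activator of the anaphase-promoting complex, had 232, 61.0, 31.6 and 478 with TSA and 288 to 724 in controls (median 456.5). Arrays 1 to 3 lay below every control and array 4 among them, and the change was -1.59 (SE 0.47, adjusted p = 0.0158). Top2a, the topoisomerase that untangles sister chromatids, had 258, 65.0, 41.4 and 605 with TSA and 294.5 to 725 in controls (median 472), a change of -1.41 (SE 0.50, adjusted p = 0.038). Kif11, the kinesin that separates the spindle poles, had 49.4, 23.5, 22.6 and 148 with TSA and 92.0 to 209 in controls (median 133), and changed by -1.10 (SE 0.34, adjusted p = 0.0199). Kif20a, a kinesin of cytokinesis, had 9.74, 3.72, 6.51 and 50.3 with TSA and 25.0 to 82.4 in controls (median 50.8), with a change of -0.84 (SE 0.26, adjusted p = 0.0189) on a scale that understates changes of dim genes. In each of these 4 genes TSA array 4 was the highest of its group and the only one within the range of the controls. The call of Top2a was also lost without control array 2, 4 or 5, and that of Kif20a without TSA array 1.

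Cdc25b, a phosphatase that activates Cdk1 at mitotic entry, was the 1 mitotic gene called higher. Its mean signal was high enough to be tested only with TSA (226.1 at 24 h, 111.4 at 6 h) and with BMP2 at 24 h (122.1). In controls the mean was 88.36 at 24 h and 84.02 at 6 h, so that the filter favoured a rise of Cdc25b. Its signals were 218, 172, 228 and 285.5 with TSA and 69.4 to 114 in controls (median 85.8), with no overlap, as for 11.8% of all tested genes in this direction. The change was 1.10 (SE 0.14, adjusted p = 1.92e-05), the smallest adjusted p of any member against its controls, and it stayed called in all 33 alternatives. Cdk1 itself, the mitotic kinase, had 381, 141, 182 and 575 with TSA and 144 to 388 in controls (median 199), a change of 0.29 (SE 0.37, adjusted p = 0.578). Mki67, the proliferation marker Ki-67, had 112, 31.9, 15.6 and 329 with TSA and 119 to 335 in controls (median 199), and its change of -1.06 had an adjusted p of 0.108. Plk1, a kinase of spindle assembly, had 81.5, 68.8, 33.6 and 127 with TSA and 80.3 to 155 in controls (median 90.9) and changed by -0.33 (adjusted p = 0.363). With the pairs as blocks Mki67 (-0.91, adjusted p = 0.0491), Ccna2 (cyclin A2, -1.22), Birc5 (survivin, -0.98), Cenpa (centromeric histone H3, -0.77), Aurka (Aurora A, -0.56) and Bub1 (spindle checkpoint kinase, -0.81) were lower as well, and 10 of 18 mitotic genes were lower in that fit, beside 25% of all tested genes.

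The lower mitotic genes were not spread evenly over the pairs. Between TSA and control arrays of equal number, the median difference of the 18 mitotic genes was -0.10, -1.01, -1.27 and -0.19 on the log2 scale for pairs 1 to 4, with 11, 17, 16 and 11 of 18 genes lower. The 16 replication genes gave medians of -0.06, -0.56, -0.45 and -0.16, and the 8 G1 genes gave 0.65, -0.08, 0.35 and 0.27. Leaving out TSA array 4 raised the calls of all members to 23, 21 of them lower (background 17.5% lower), and leaving out control array 1 gave 22. Leaving out TSA array 2 gave 8 calls and leaving out TSA array 3 gave 9, with Cdc20, Top2a, Kif11 and Kif20a not called in either case. Without both arrays numbered 4, a choice made after the data were seen, 20 members were called.

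**Figure D4:**
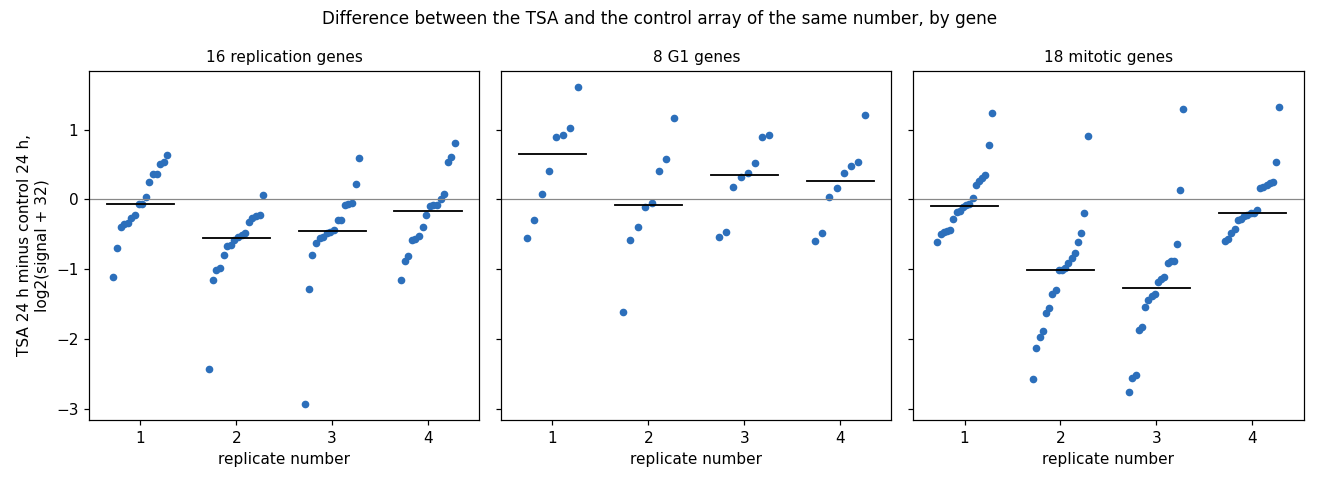
Difference of log2(signal + 32) between the TSA and the control array of the same number at 24 h (x axis, pairs 1 to 4) for each tested replication, G1 and mitotic gene (points, sorted within a pair), with the median of each pair (line). The mitotic medians are -1.01 and -1.27 in pairs 2 and 3 and -0.10 and -0.19 in pairs 1 and 4.

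The G1 genes divided under TSA at 24 h. Cdk4, a kinase partner of D cyclins, had 1915, 1536, 2096 and 2117 with TSA and 2310 to 3266 in controls (median 2942). All 4 TSA arrays lay below all controls, and Cdk4 changed by -0.55 (SE 0.11, adjusted p = 0.00127), with -0.78 to -0.67 on its other 2 probe sets. Its close relative Cdk6 had 580.2, 316.5, 367 and 347.5 with TSA and 123 to 308 in controls (median 219.5), again with no overlap, and changed by 0.80 (SE 0.22, adjusted p = 0.0112). Both calls held in all 33 alternatives.

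Of the D cyclins, Ccnd2 and Ccnd3 were higher and Ccnd1 did not pass the test. Ccnd2 had 4700, 2997, 3318 and 6250 with TSA and 2002 to 3185 in controls (median 2609), a change of 0.68 (SE 0.22, adjusted p = 0.024) that was not called without TSA array 1 or without TSA array 4 (adjusted p = 0.0692 and 0.1). Ccnd3 had 960.5, 591, 947 and 921 with TSA and 440 to 703 in controls (median 576), a change of 0.53 (SE 0.16, adjusted p = 0.0166) that was not called without TSA array 1, 3 or 4, and under median scaling the calls of both genes were lost. Ccnd1 had 2435, 1011, 615 and 917 with TSA and 500.3 to 1096 in controls (median 735), with array 1 alone above the controls and a change of 0.60 (SE 0.30, adjusted p = 0.134). Ccne2, cyclin E2, had 51.4, 25.3, 59.1 and 94.0 with TSA and 78.8 to 158 in controls (median 121), and fell by 0.78 on the log2 scale (SE 0.23, adjusted p = 0.0169), a call lost without TSA array 2 (adjusted p = 0.066). Its paralogue Ccne1 had 244, 168, 199 and 239.5 with TSA, within the 129 to 286 of the controls, and changed by 0.13 (adjusted p = 0.599).

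TSA for 6 h changed 4 members, all of them G1 genes, with Ccnd1 and Cdk4 lower and Ccnd3 and Cdk2 higher. These are 4 of 42, beside 26.3% of all tested genes (14.4% higher, 11.8% lower). Ccnd1, cyclin D1, had 169.9 and 91.8 with TSA, against 967 and 725.5 in controls. Both TSA arrays lay far below the controls, and the change of -2.46 (SE 0.47, adjusted p = 0.00166), about 5.50-fold lower, was the largest of any member in the comparisons with controls. It held in all 33 alternatives, between -2.81 and -2.06.

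The remaining G1 changes at 6 h were smaller. Cdk4 had 2233 and 1885 with TSA and 3268 and 3172 in controls, a change of -0.64 (SE 0.17, adjusted p = 0.0136). Ccnd3 had 1680 and 1557 with TSA and 1028 and 837.5 in controls, and rose by 0.78 (SE 0.24, adjusted p = 0.0315). Cdk2, the partner of E cyclins, had 626 and 617 with TSA and 387.5 and 378 in controls, a rise of 0.66 (SE 0.19, adjusted p = 0.0219). In all 3 genes the arrays of the 2 groups did not overlap, which at 6 h holds for 40.6% of all tested genes upwards and 36% downwards. With 2 arrays a group, Cdk2 and Ccnd3 lost their calls when any array of either group was left out, and Cdk4 when control array 1, control array 2 or TSA array 2 was. Of the G1 genes that did not pass, Cdk6 had 204 and 134 with TSA and 286 and 199.9 in controls, and Ccne1 had 385 and 350.4 with TSA and 375 and 306 in controls. The change of Ccne1 was 0.11 on this probe set and 1.11, also not called, on its other probe set.

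Without blocks, no mitotic and no replication gene passed the test with TSA at 6 h, and 1 of each, Kif20a and Rrm2, had an unadjusted p under 0.05. With arrays of equal number as blocks, Kif20a, Mki67 and Rrm2 were called lower, beside 21% of all tested genes. At 6 h such arrays are not shown to be pairs. Of the mitotic genes 17 of 18 had a negative change, with a median of -0.57, beside 0.02 over all tested genes, and the medians by number were -0.57 between the arrays 1 and -0.49 between the arrays 2. Kif20a had 55.2 and 27.5 with TSA and 129.9 and 89.8 in controls, a change of -0.96 (SE 0.40, adjusted p = 0.0984) with no overlap. Its mean signal was high enough to be tested only in controls (109.9) and with BMP2 (105.4) at 6 h. The filter thus favoured a fall of Kif20a with TSA. Mki67 had 196 and 58.8 with TSA and 550.4 and 226.5 in controls, a change of -1.43 (SE 0.77, adjusted p = 0.205). Both groups differed more than 2-fold between their own arrays of this gene. Cdc20 had 373.5 and 236 with TSA and 954 and 686 in controls, a change of -1.35 (SE 0.73, adjusted p = 0.208), and Top2a had 930 and 454 with TSA and 1524 and 736.5 in controls, a change of -0.68 (adjusted p = 0.592). The replication genes had a median of 0.00, with Rrm2 at 796.5 and 565 with TSA and 1958 and 992 in controls (-1.02, SE 0.46, adjusted p = 0.131), Mcm5 at -0.92 and Mcm3 at 0.40. Pcna had 3131 and 3151 with TSA, between the 3659 and 2889 of the controls, and Mcm6 had 1346 and 1214 with TSA, between 1461 and 781 in controls.

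BMP2 for 24 h changed 2 members, Cdk6 and Ccnd2, both upwards and both G1 genes. These are 2 of 42, beside 17.6% of all tested genes (9.93% higher). Cdk6 had 627.5 and 909 with BMP2, against 123 to 308 in controls (median 219.5). The lower BMP2 array was above the highest control, and the change of 1.69 (SE 0.28, adjusted p = 0.00061), or 3.23-fold, held in all 33 alternatives between 1.43 and 2.23, with 2.76 on the other tested probe set. Ccnd2 had 4748 and 6186 with BMP2 and 2002 to 3185 in controls (median 2609), a rise of 1.06 (SE 0.27, adjusted p = 0.0145), with rises of 1.00 to 2.53 on its other 6 probe sets, 5 of which passed. On its brightest probe set Ccnd2 was not called without BMP2 array 1 (adjusted p = 0.0594), without BMP2 array 2 (0.19) or with a term for the arrays of high Xist signal (0.87, adjusted p = 0.132).

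**Figure D5:**
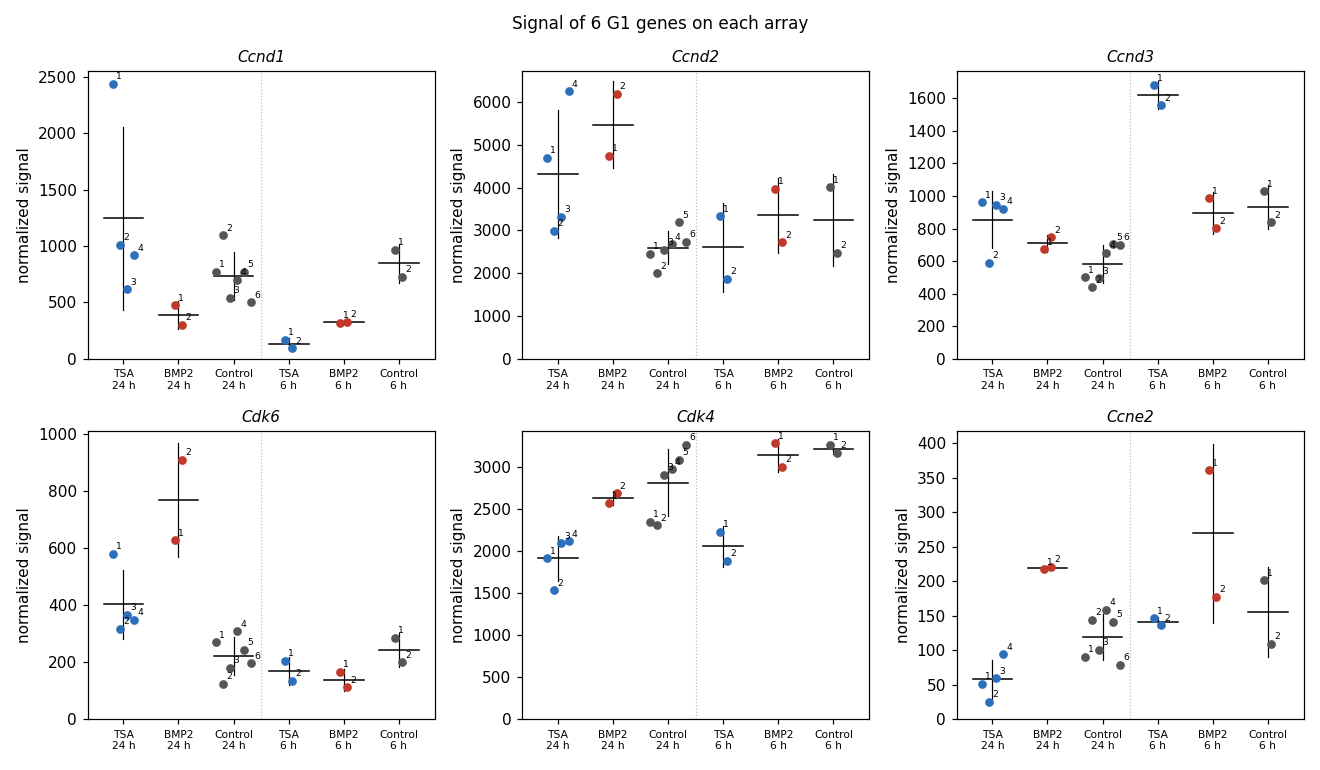
Normalized signal (linear axes) of the D cyclins Ccnd1, Ccnd2 and Ccnd3, of Cdk6 and Cdk4, and of Ccne2 on each array (points, numbered by replicate), with the group mean and ± 1 SD. Ccnd1 is at 91.8 and 169.9 with TSA for 6 h against 725.5 and 967 in its controls, and Cdk6 is at 627.5 and 909 with BMP2 for 24 h against 123 to 308 in its controls.

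Ccnd1 lay on the other side of its controls without passing the test. It had 475 and 303 with BMP2 at 24 h and 500.3 to 1096 in controls (median 735), so that both BMP2 arrays lay below all controls, with a change of -0.84 (SE 0.38, adjusted p = 0.142). Ccne2 had 217 and 220.4 with BMP2, above the 78.8 to 158 of the controls, and changed by 0.76 (SE 0.30, adjusted p = 0.0898). Cdc25b had 119 and 125 with BMP2, above the 69.4 to 114 of the controls, and changed by 0.37 (adjusted p = 0.153). In total 5 members lay above all controls without overlap and 1 below, beside 17.3% and 14.6% of all tested genes. Cdk4, with 2572 and 2687 under BMP2, lay within its controls as a whole. It lay below control arrays 5 and 6 (3091 and 3266), which share the high Xist signal of the BMP2 arrays. The block fit within time and Xist level called Cdk4 lower (-0.27, adjusted p = 0.037), as it did 9.23% of all tested genes. A fit with a term for the high Xist signal did not (adjusted p = 0.355).

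Mitotic genes had positive changes with BMP2 at 24 h in 17 of 18 cases (median 0.44, beside 0.03 over all tested genes), none of which passed the test, and the 2 BMP2 arrays differed. Cdc20 had 514 and 1408 with BMP2 and 288 to 724 in controls, a change of 0.81 (SE 0.60, adjusted p = 0.372). Cdk1 had 263 and 517 with BMP2 and 144 to 388 in controls, a change of 0.66 (adjusted p = 0.35). Top2a had 390.1 and 799 with BMP2 and 294.5 to 725 in controls, a change of 0.22 (adjusted p = 0.843). In each of these genes array 1 lay within the controls and array 2 above them. Without BMP2 array 2 the median of the mitotic genes was -0.10, and without BMP2 array 1 it was 0.98. The replication genes had a median of 0.09, with Pcna at 2348 and 2487 with BMP2, inside the controls, and Rrm1 at 838 and 1101, above the 534 to 811 of the controls (0.45, adjusted p = 0.154), although its other probe set gave -0.43.

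BMP2 for 6 h changed no member at an adjusted p under 0.05 (limma), beside 1.79% of all tested genes, and 1 member, Ccnd1, had an unadjusted p under 0.05. Ccnd1 had 320.4 and 327 with BMP2 and 967 and 725.5 in controls, a change of -1.29 (SE 0.47, adjusted p = 0.375). The BMP2 arrays were close to each other. They lay below both controls, as they did for 22.8% of all tested genes. A fit of only the groups compared called Ccnd1 (adjusted p = 0.0289). Fits with the replicate block (adjusted p = 0.0673) or a term for the arrays of high Xist signal (adjusted p = 0.327) did not. Cdk6 had 165 and 111 with BMP2 and 286 and 199.9 in controls, a change of -0.69 (SE 0.35, adjusted p = 0.891). All 16 replication genes had negative changes, with a median of -0.22 and a range of -0.49 to -0.03, beside -0.01 over all tested genes. Mcm6 had 1002 and 564.5 with BMP2 and 1461 and 781 in controls, and Pcna had 3460 and 2779 with BMP2 and 3659 and 2889 in controls. Mitotic genes had a median of 0.08, with Cdk1 at 685 and 368 with BMP2 and 646 and 287 in controls.

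The effects of a treatment at the 2 times were set against each other in the same fit. For Ccnd1 the effect of TSA at 24 h exceeded that at 6 h by 3.06 on the log2 scale (SE 0.56, adjusted p = 0.00447), 1 of 42 members beside 11.6% of all tested genes, and this held in all 33 alternatives. Its signal under TSA was 615 to 2435 at 24 h and 91.8 to 169.9 at 6 h. For Cdk6 the effect of BMP2 at 24 h exceeded that at 6 h by 2.38 (SE 0.45, adjusted p = 0.0196), again 1 of 42, beside 0.766% of all tested genes, with Cdk6 at 627.5 and 909 under BMP2 at 24 h and 165 and 111 at 6 h. The second call was lost in 6 of 33 alternatives, among them the fits without control 6 h array 1, control 6 h array 2, BMP2 6 h array 2 or BMP2 24 h array 2. Under TSA the corresponding difference of Cdk6 was 1.25 (SE 0.41, adjusted p = 0.0656). A fit with blocks by number at both times called this difference (1.27, adjusted p = 0.00592), as it did 30.3% of all tested genes. In that fit Ccnd1, Ccnd2 (1.11), Cdc25b (0.77), Pcna (-0.69) and Cdk2 (-0.48) passed as well. At 6 h, equal numbers are not shown to be pairs.

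Set directly against BMP2 at 24 h, TSA gave 2 members higher and 14 lower, 16 of 42, beside 38.3% of all tested genes (17.2% higher, 21.2% lower). Cdc20 was lower with TSA by -2.40 on the log2 scale (SE 0.63, adjusted p = 0.00816), Mcm5 by -1.95 (SE 0.58, adjusted p = 0.0151) and Ccne2 by -1.54 (SE 0.31, adjusted p = 0.00155), while Ccnd1 (1.44, SE 0.40, adjusted p = 0.0113) and Cdc25b (0.73, SE 0.18, adjusted p = 0.00592) were higher. Cdk6, which was higher than the controls with either treatment, gave -0.89 for TSA over BMP2 (SE 0.30, adjusted p = 0.0282). Both BMP2 arrays and none of the TSA arrays have the high Xist signal, and with a term for it 2 members were called, Ccne2 and Pcna, beside 14.2% of all tested genes. Without BMP2 array 2 there were also 2 calls, with Cdc20, Mcm5, Ccnd1 and Cdk6 among those lost. Mcm5 and Cdc25b were not called without BMP2 array 1, nor Cdk6 without TSA array 2, 3 or 4. Ccne2 was the 1 gene of the 16 that stayed called in every alternative. Rrm1, lower by -0.68 on its brightest probe set, gave 0.78 on its other probe set (adjusted p = 0.0916).

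At 6 h, TSA against BMP2 gave 2 members higher and 1 lower, 3 of 42, beside 28% of all tested genes. Ccnd3 was higher with TSA by 0.84 (SE 0.24, adjusted p = 0.0204) and Cdk2 by 0.68 (SE 0.19, adjusted p = 0.0174), and Cdk4 was lower by -0.61 (SE 0.17, adjusted p = 0.0171). For Ccnd1, which had lower signals than controls with either treatment, the difference of -1.17 between TSA and BMP2 did not pass (95% interval -2.16 to -0.18 before adjustment, adjusted p = 0.0816). The other probe sets of Ccne1 (1.27) and Fen1 (0.85) were called higher, while their brightest probe sets (0.06 and 0.43) were not. None of the 3 calls on brightest probe sets held in every alternative. Leaving out BMP2 array 2 or TSA array 2 left no call, and leaving out BMP2 array 1 or TSA array 1 left 1.

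In untreated cultures nearly all members had lower signals at 24 h than at 6 h, but only Fen1 passed the test. Fen1, the nuclease that trims Okazaki fragments, had 374 to 507 in controls at 24 h (median 475) and 765 and 639 in controls at 6 h, a change of -0.59 (SE 0.14, adjusted p = 0.0263). It is 1 of 42 members, beside 4.36% of all tested genes (2.53% lower), and was not called without either control array of 6 h or under median scaling. Of the 42 members 40 had a negative change, with a median of -0.73, and the mitotic genes had a median of -0.85, beside 0.06 over all tested genes. Bub1b, Cdc6 and Kif20a had the mean signal needed for testing only at 6 h (156.9, 113.4 and 109.9 in controls). In controls at 24 h their means were 69.75, 57.27 and 53.87, so that the filter favoured a fall of these genes. Top2a had 294.5 to 725 at 24 h and 1524 and 736.5 at 6 h, and Mki67 had 119 to 335 at 24 h and 550.4 and 226.5 at 6 h. Plk1 had 80.3 to 155 at 24 h and 277 and 158 at 6 h, with no overlap and an adjusted p of 0.149. Arrays of the 2 times did not overlap for 11 of 42 members, all lower at 24 h, beside 9.35% of all tested genes. Of the 2 control arrays of 6 h, array 1 exceeded array 2 in 17 of 18 mitotic genes.

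The remaining genes of the pathway were read from lists of 30 other replication genes, 19 other G1 and E2F genes, 38 other mitotic genes and 8 inhibitors of cyclin-dependent kinases. With TSA for 6 h, 10 of 25 tested replication genes of this list were higher and none lower (median 0.53), beside 14.4% and 11.8% of all tested genes, led by Rpa1 of the single-strand binding complex (1.24, SE 0.16, adjusted p = 0.00012) and Gins4 of the GINS complex (1.01, SE 0.14, adjusted p = 0.000148). At 24 h with TSA, 3 of them were higher and 5 lower, beside 18.6% and 20.1% of all tested genes, with Cdc7, the kinase that fires origins, at -0.86 (SE 0.19, adjusted p = 0.00304). Other mitotic genes were lower in 4 and higher in 2 of 34 cases with TSA for 24 h, against the same shares of all tested genes, where Pttg1, securin, rose by 0.99 (adjusted p = 5.15e-05) and Smc2 of condensin changed by -0.91 (adjusted p = 0.0115).

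Among G1 regulators outside the members, Myc fell by 1.81 on the log2 scale with TSA for 6 h (adjusted p = 0.00132), by 1.06 with TSA for 24 h (adjusted p = 0.00129) and by 1.43 with BMP2 for 24 h (adjusted p = 0.00179), and Tfdp1, the partner of E2F proteins, changed by -0.75 with TSA for 24 h (SE 0.09, adjusted p = 1.31e-05). The kinase inhibitors differed by treatment. Cdkn1a (p21) and Cdkn2b (p15) were higher with TSA by 1.72 and 1.82 at 6 h and by 1.46 and 1.53 at 24 h. Cdkn1c (p57) was higher with BMP2 by 2.97 at 6 h (SE 0.40, adjusted p = 0.000858) and by 1.61 at 24 h (SE 0.33, adjusted p = 0.00308), and lower with TSA at 24 h by -0.84 (adjusted p = 0.0192). TSA against BMP2 gave -2.45 for Cdkn1c at 24 h (SE 0.35, adjusted p = 8.92e-05). At 6 h it gave -2.08 (SE 0.40, adjusted p = 0.00159), so that TSA then lay between controls and BMP2, without a call against controls.

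Several probe sets were tested for 23 members. Of 23 called changes of such genes, none had another probe set with a call in the opposite direction. E2f1, the first E2F factor and itself too dim to test, had 43.2, 39.6, 51.2 and 59.3 with TSA and 24.5 to 56.7 in controls at 24 h (median 40.1), and 88.9 and 86.4 with TSA and 59.7 and 35.0 in controls at 6 h. Over all arrays Tyms lay between 8.76 and 29.4, Foxm1, a transcription factor of G2 genes, between 51 and 120, Cenpe, a kinetochore kinesin, between 8.37 and 123.5, and Mybl2, which acts with Foxm1, between 27.4 and 76.7.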

How the data were processed

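RNA was hybridised to 18 1-colour Mouse Genome 430 2.0 arrays. The values deposited by the authors are linear intensity values, 1 per probe set. Per the labels MAS5 was used, whereas the methods of the study name dChip with quantile normalization. Array medians of 35.4 to 41.6 were found in the deposited values. Probe sets with 1, several and no gene symbol in the platform annotation numbered 34958, 932 and 9211, and those with several were not used for a gene.

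Values were quantile normalized, probe sets with a highest group mean of at least 100 were kept (19498), and log2(signal + 32) was fitted with limma 3.58.1 in R 4.3.3, with 6 groups in 1 fit, a variance trend and Benjamini-Hochberg adjustment at 0.05. Fold changes are on that log2 scale, which understates the change of dim genes. Intervals are 95% intervals, and the number of arrays limits the precision. The fit was tested on simulated data. Members are named with array values where they passed the test with 1 of the 4 smallest adjusted p of their role in a comparison with controls or between the control times, or, in at least 1 comparison, where they stood on a list (Mcm2, Mcm6, Pcna, Rrm2, Ccnd1, Ccnd2, Cdk4, Cdk6, Ccne1, E2f1, Cdk1, Ccnb1, Mki67, Top2a, Plk1 and Cdc25b, of which Ccnb1 is not analysed here). A few more were named after their values were seen, and the other lists were read by their 3 smallest adjusted p, of which some are given. Members and lists were chosen with earlier results of these data known.

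TSA and control arrays of 24 h share the numbers 1 to 4 in the labels. Deviations from the group means correlated within equal numbers at r = 0.42, 0.58, 0.48 and 0.32. The highest r with a control of another number was 0.09, 0.22, 0.3 and 0.26. Each TSA array thus matched the control of its own number best, number 4 only by little, and these numbers were taken as pairs. The replicate block fit also held arrays of high and of low Xist signal apart. Alternatives were other scalings, pseudocounts, filters, probe set rules and models, the criteria of the study (ratio above 2, difference above 100, confidence of 90%), and leaving out each array.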

Additional observations from a re-analysis of the deposited data

Results flagged for a closer look

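Dixon's criterion at the 95% level was applied to each of the 42 tested members in the TSA and in the control group of 24 h. Chance alone meets it in about 1 in 20 groups, so that a few such values would arise by chance. In all, 3 values stood far from the rest of their group. With TSA for 24 h, Ccnd3 was 591 on array 2, where the nearest of the other arrays had 921. Nusap1, a spindle protein, was 259 on TSA array 4 of 24 h, where the nearest had 97.1. Rfc4, a subunit of the clamp loader, was 257 on control array 1 of 24 h, where the nearest had 329.

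The effect of a treatment differed between the 2 times for 2 members by the test of that difference. For Ccnd1 the effect of TSA at 24 h exceeded that at 6 h by 3.06 on the log2 scale (limma, adjusted p = 0.00447), and for Cdk6 the effect of BMP2 at 24 h exceeded that at 6 h by 2.38 (adjusted p = 0.0196).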

How the results depend on the processing

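For single members, 12007 values stayed on their side of the threshold under the alternatives, 132 lost a call, 214 gained one and 1 called value changed sign. Values without a call changed sign in some alternatives and are not counted as such. The called value was Rrm1 with TSA against BMP2 at 24 h, at 0.05 in the mean of its probe sets (adjusted p = 0.883). The cause of the changes was not tested.

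Members called with TSA for 24 h numbered 14, against 25 with the replicate block by number within time, 24 with the block within time and Xist level, 5 by the criteria of the study and 8 to 23 without single arrays. With TSA for 6 h there were 4, against 7 with either replicate block (Kif20a, Mki67 and Rrm2 lower as well, at adjusted p of 0.0109, 0.0353 and 0.037 in the block within time and Xist level) and 1 to 5 without single arrays. With BMP2 for 24 h there were 2, against 12 with the replicate block by number, 1 with the Xist term and 1 to 3 without single arrays. With BMP2 for 6 h there were 0, against 1 when only the groups compared were fitted, 1 by the criteria of the study and 0 without any single array. TSA against BMP2 at 24 h gave 16, against 10 with only the groups compared, 31 and 9 with the replicate block by number and by Xist level, 2 with the Xist term, 2 to 24 without single arrays, and 25 without both arrays numbered 4 of TSA and control, a setting chosen after seeing the data. At 6 h it gave 3, against 5 with the mean of all probe sets, 9 with only the groups compared, 13 and 9 with the replicate blocks, 5 with the Xist term and 0 to 5 without single arrays.

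Controls of 24 h against 6 h gave 1, against 0 with median scaling, with no filter and with only the groups compared, 2 with the Xist term, 6 by the criteria of the study and 0 to 3 without single arrays. No paired analysis was possible because the block lies within time for this comparison. The time difference of the BMP2 effect gave 1, against 0 with a pseudocount of 1, 4 with the replicate block by number, 0 with the Xist term and 0 to 1 without single arrays. That of TSA gave 1, against 2 with a pseudocount of 64, with 1 probe set per gene, with the mean of probe sets and with no variance trend, 9 and 6 with the replicate blocks, and 1 to 2 without single arrays. At 6 h arrays of equal number share only a number, with 2 pairs (r = 0.70 for BMP2 and 0.56 for TSA), and for BMP2 at 24 h r was 0 and -0.13.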
